A study of Homo sapiens with 4 samples.

Results

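The 10 long non-coding RNAs described here, H19, MALAT1, NEAT1, HULC, GAS5, SNHG1, NORAD, TUG1, DANCR and EPB41L4A-AS1, were taken from the 62655 gene rows of the count table by their Ensembl gene IDs, and all 10 had a row. They were chosen as abundant non-coding transcripts of hepatoma cells. In these libraries NORAD, TUG1, NEAT1, GAS5, DANCR and SNHG1 ranked between 1 and 26 by mean level among 1508 tested long non-coding RNAs. EPB41L4A-AS1 ranked 113 and MALAT1 128, and H19 and HULC had almost no counted reads, with the limits given below. Earlier results of these data were known at the choice, so the ranks do not test it. The cells were Hep G2, an established human hepatocellular carcinoma line used as a model of hepatocytes. After plating at 150000 cells per ml, every sample was grown for 24 h, kept in an oleic acid medium for the next 24 h, which made the cells steatotic, and then transfected with HiPerFect. In the mimic group (2 libraries) the oligonucleotide copied LysTTT-5'tRF, a fragment from the 5' end of a lysine tRNA, and in the control group (2 libraries) it was a negative control. RNA was taken 24 h after transfection. The columns with the prefix 25 were read as the mimic, because the other columns carry the abbreviation of the negative control and the series has no further treatment, a reading that no label states. Library numbers are those of the columns.

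Long non-coding RNAs are transcribed and mostly spliced like mRNAs but act as RNA. MALAT1 and NEAT1 stay in the nucleus, MALAT1 in splicing speckles and NEAT1 as the scaffold of paraspeckles. NORAD is cytoplasmic and binds the Pumilio repressors of mRNA stability and translation. GAS5, SNHG1, DANCR and EPB41L4A-AS1 carry small nucleolar RNAs (snoRNAs), guides of ribosomal RNA modification, in their introns, and the spliced hosts of several such genes are removed by nonsense-mediated decay. H19 is the maternally expressed partner of the imprinted growth factor gene IGF2 and the precursor of miR-675, and HULC was named for its high level in liver cancer.

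The libraries were poly(A)-selected, and this bears on MALAT1 and NEAT1 through their 3' ends. RNase P cuts MALAT1 just before a tRNA-like small RNA, and the long form of NEAT1 is cut in the same way. Neither then receives a poly(A) tail, and a helix that folds U-rich stretches onto an A-rich tract protects the end. The short form of NEAT1 ends at an ordinary poly(A) site. The 3 sequences below, read from the GENCODE v29 transcripts (GRCh38, plus strand), show what a poly(A) selection could hold on to. Capitals mark the A-rich tract at the ends of MALAT1 and long NEAT1, and the AATAAA poly(A) signal of short NEAT1. Of 4 short-form transcripts annotated there, only the one that ends furthest downstream, NEAT1-208, has AATAAA in its last 60 bases, and it is the one shown.
MALAT1, chr11:65506007-65506116: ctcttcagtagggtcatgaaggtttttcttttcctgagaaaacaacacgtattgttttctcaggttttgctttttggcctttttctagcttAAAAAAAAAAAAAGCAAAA
NEAT1 long form, chr11:65445431-65445540: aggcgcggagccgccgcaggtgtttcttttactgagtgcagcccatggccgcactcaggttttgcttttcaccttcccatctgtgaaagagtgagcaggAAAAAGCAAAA
NEAT1 short form, chr11:65426454-65426513: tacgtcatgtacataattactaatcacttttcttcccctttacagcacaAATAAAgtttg
The longest run of A was 13 bases at the end of MALAT1 and 5 bases at the end of long NEAT1. What share of either RNA the selection kept was not measured, so the levels of MALAT1 and NEAT1 below are those of the captured molecules.

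NORAD is known for its repeated Pumilio sites, and these are shown because NORAD was the most abundant of the 10. The motif TGTANATA, searched on the transcript strand, occurred 15 times in the 5339 bases of NORAD, which is 2.81 per kb. Of 4370 GENCODE v29 transcripts between 4805 and 5873 bases long, 42.9% held at least 1 copy, their median was 0, and 3 held at least as many as NORAD, itself included. Among the other described RNAs present under their names in that release, the longest transcript of NEAT1 held 6 copies, those of TUG1 and EPB41L4A-AS1 2 each and that of SNHG1 1, and those of MALAT1, H19, GAS5 and DANCR 0. The flank of site 5 holds the motif of site 4. The first site of each spelling present in NORAD is given with 11 bases on either side and the motif in capitals (GRCh38, minus strand).
NORAD site 1, chr20:36050182-36050211: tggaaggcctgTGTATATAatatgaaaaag
NORAD site 3, chr20:36049702-36049731: aaatcacatttTGTAAATAcctttttgtta
NORAD site 5, chr20:36049492-36049521: tgtgtatatagTGTACATAaaggacagacg

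Reads counted to genes ranged from 15430539 to 18961222 per library. The level of each gene is given as CPM, counts per 1000000 reads of a library scaled by TMM. Annotated long non-coding RNAs took 0.841% to 0.877% of these reads, and the 10 described RNAs took 12.8% to 13.1% of that part, of which NORAD alone held 56.3% to 58.3%. The hepatocyte identity of the line was visible in its 14 marker genes, all of which were tested, with a summed level of 53343 and 53596 CPM in the mimic libraries and 50798 and 52616 CPM in the control libraries. Albumin, ALB, was the 1 of them called (log2 fold change 0.23, edgeR, Benjamini-Hochberg adjusted p = 0.0109). The call of ALB held in 12 of 13 other settings. It was lost with low counts left unfiltered (edgeR, Benjamini-Hochberg adjusted p = 0.754). Of 12 fibroblast, endothelial and leukocyte markers, 4 (COL1A2, PTPRC, CD3E and MS4A1) had no read, and nearly all of their sum of 1487 to 1634 CPM came from lysozyme, LYZ (1525 CPM). The labels call the libraries replicates without naming separate cultures, and the p-values below therefore rest on a spread that may be technical only. In bulk RNA, fewer cells with a transcript and less transcript per cell cannot be told apart.

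**Figure D1:**
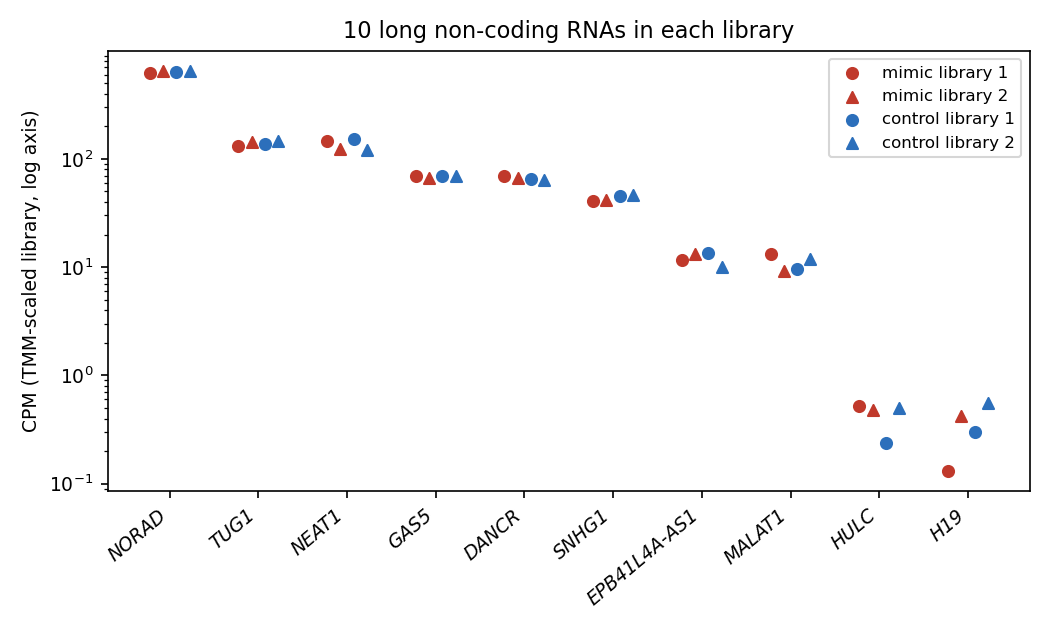
Level of the 10 long non-coding RNAs in each library, in CPM on a log axis, with mimic libraries in red, control libraries in blue, and library 1 as circles and library 2 as triangles. NORAD lies between 627 and 651 CPM, and HULC and H19 reach at most 0.523 and 0.559 CPM.

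No described RNA passed the test for a change with the mimic. Of the 8 that were above the filter on low counts, 0 were called by edgeR's quasi-likelihood test at a Benjamini-Hochberg adjusted p under 0.05, against 0.346% of the 14464 genes tested (0.277% called higher and 0.0691% called lower), and 0 had an unadjusted p under 0.05, against 9.43% of all genes. DESeq2, which gave an adjusted p to 6 of the 8, and limma voom also called 0. Their fitted log2 fold changes, mimic minus control, ran from -0.15 to 0.10 with a median of -0.02, beside a median of 0.00 over all genes and -0.04 over all long non-coding RNAs tested. A negative fitted change was found in 5 of the 8, beside 49.6% of all genes. The groups did not overlap in 3 of the 8 (GAS5, SNHG1 and DANCR), beside 39.1% of all genes. A p that misses the threshold does not show equal levels, and the intervals below give the sizes these 4 libraries leave possible.

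**Figure D2:**
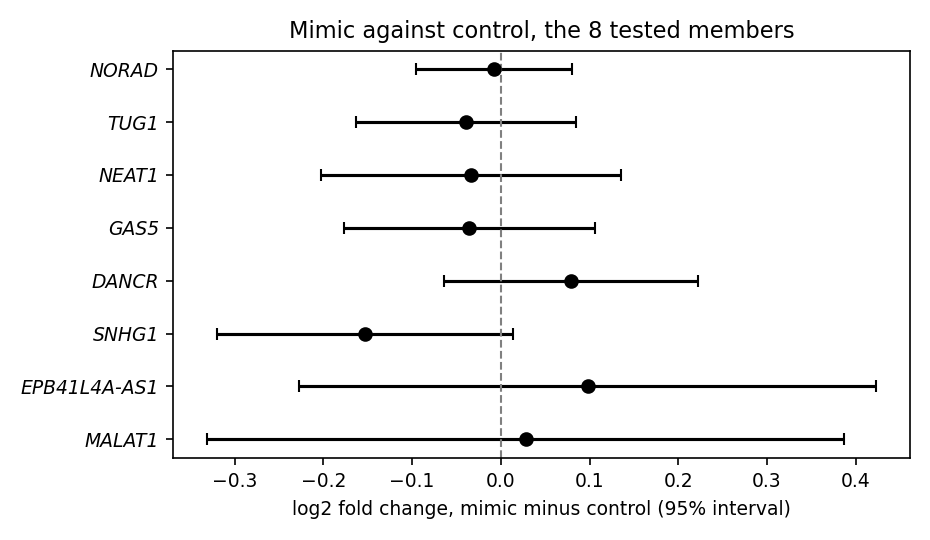
Log2 fold change, mimic minus control, of the 8 tested long non-coding RNAs, with the fitted value as a point and its 95% interval as a bar. All 8 intervals include 0, the narrowest being that of NORAD and the widest that of MALAT1.

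NORAD (ENSG00000260032, chromosome 20, 36045622 to 36050960 of GRCh38, minus strand) is a single unspliced transcript with no annotated gene over its exon. It measured 627 and 649 CPM in mimic libraries 1 and 2, and 632 and 651 CPM in control libraries 1 and 2. Each group held 1 lower and 1 higher library, and the groups overlapped almost completely. The log2 fold change was -0.01 (95% interval -0.10 to 0.08, edgeR, Benjamini-Hochberg adjusted p = 0.984). NORAD was the most abundant of the 1508 long non-coding RNAs tested. Divided by exon length it stood at 120 ± 2.29 CPM per kb (SD, n = 4 libraries), rank 1 of 1498 long non-coding RNAs with a length and rank 189 of 14086 genes. Of 9 genes in a list of Pumilio proteins and other NORAD partners, 9 were tested, 0 were called by edgeR and 1 had an unadjusted p under 0.05, with a median log2 fold change of 0.02. The repressor PUM2, at 309 CPM the most abundant of them, had a log2 fold change of 0.05 (-0.05 to 0.15), and the RNA-binding protein RBMX, with the smallest p of the list, one of 0.12 (0.01 to 0.23). EPB41L1, the nearest protein-coding gene at higher coordinates, lies 40544 bases from NORAD. Its log2 fold change was -0.21 (-0.32 to -0.10) without passing the test (edgeR, Benjamini-Hochberg adjusted p = 0.119).

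TUG1 (ENSG00000253352, chromosome 22, 30969245 to 30979395, plus strand) is a nuclear and cytoplasmic RNA linked to Polycomb repression, which RefSeq now classes as protein-coding. Its level was 132 and 143 CPM with the mimic and 136 and 147 CPM in the control. As for NORAD, library 2 was the higher of both groups and the groups overlapped. The fitted log2 change was -0.04 (-0.16 to 0.08, edgeR, Benjamini-Hochberg adjusted p = 0.906). Per length TUG1 stood at 13.7 ± 0.665 CPM per kb (SD, n = 4). MORC2, a chromatin ATPase whose gene begins 947 bases away, was at -0.03 (log2 fold change, -0.17 to 0.10).

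The nuclear RNA NEAT1 (ENSG00000245532, chromosome 11, 65422774 to 65445540, plus strand) varied more between libraries of a group than between groups. It measured 146 and 123 CPM with the mimic and 152 and 122 CPM in the control, so library 1 was the higher of both groups. The fitted log2 change was -0.03 (-0.20 to 0.14, edgeR, Benjamini-Hochberg adjusted p = 0.953). Over the whole 22767 bases of exon the level was 5.95 ± 0.691 CPM per kb (SD, n = 4). If every read came from the first 3740 bases, which end with the short form, it would be 36.2 CPM per kb. Gene-level counts cannot tell the 2 forms apart. Messages of 20 paraspeckle proteins were tested, 0 were called by edgeR and 1 had an unadjusted p under 0.05, with a median log2 fold change of 0.01. HNRNPK, an RNA-binding protein needed to make the long form and the most abundant of the list (679 CPM), stood at 0.05 (-0.04 to 0.13), and the cold-inducible RBM3, with the smallest p, at -0.19 (-0.31 to -0.07, edgeR, Benjamini-Hochberg adjusted p = 0.229). RBM3 was called by edgeR without control library 1 (-0.24, adjusted p = 0.0179) and with the replicate block (-0.19, adjusted p = 0.023).

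MALAT1 (ENSG00000251562, chromosome 11, 65497688 to 65506516, plus strand), in many cells one of the most abundant nuclear RNAs, was counted at a low level. It had 201 and 173 reads with the mimic and 163 and 192 in the control, or 13.1, 9.21, 9.69 and 11.9 CPM in that order. Each group held 1 high and 1 low library. The log2 fold change of 0.03 had the widest interval of the 8 (-0.33 to 0.39, edgeR, Benjamini-Hochberg adjusted p = 0.986). Its length-normalized level was 1.24 ± 0.210 CPM per kb (SD, n = 4), rank 605 of 1498. Speckle and splicing proteins, with which MALAT1 is found, held 0 genes called by edgeR of 24 and 2 at an unadjusted p under 0.05, with a median log2 fold change of -0.03. The speckle scaffold SRRM2, at 903 CPM, stood at -0.01 (-0.09 to 0.08), and the splicing factor SRSF4, with the smallest p, at 0.14 (0.01 to 0.26).

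The counting itself bears on the level of MALAT1. TALAM1, an antisense RNA at 65499312 to 65507432 of chromosome 11 in RefSeq (GRCh38.p14), lies opposite 82.1% of the MALAT1 gene, and it has its own row in the counts, with 2 reads in all. If strand was not used, reads from the shared stretch belong to neither gene. The library kit was stranded, but whether HTSeq used strand is not given in the sources used here, and protein-coding genes with exons under another gene were examined. Of 23 genes with at least 90% of their exon bases under opposite-strand exons in GENCODE v29 (and under 10% under same-strand ones), 0 reached 10 CPM, compared with 45.9% of 15983 genes with under 10% of either overlap. For genes with at least 90% under exons of the same strand, where no counting can use strand, the share was 0.758% of 396. MGAT2, a Golgi enzyme of N-glycan synthesis needed in most cells and named here after its value was seen, was the second most counted of the 23, at 2.03 CPM with 91.9% of its exons covered. The classes may differ in other ways, so the shares are a description. Of the MALAT1 exon bases, 1624, or 18.4%, lie before TALAM1. From the start shared by 3 MALAT1 transcripts, 270 bases lie before it. If all reads fell in these stretches the level would be 6.77 or 40.7 CPM per kb. The share of MALAT1 reads lost to overlap or to poly(A) selection was not tested.

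**Figure D3:**
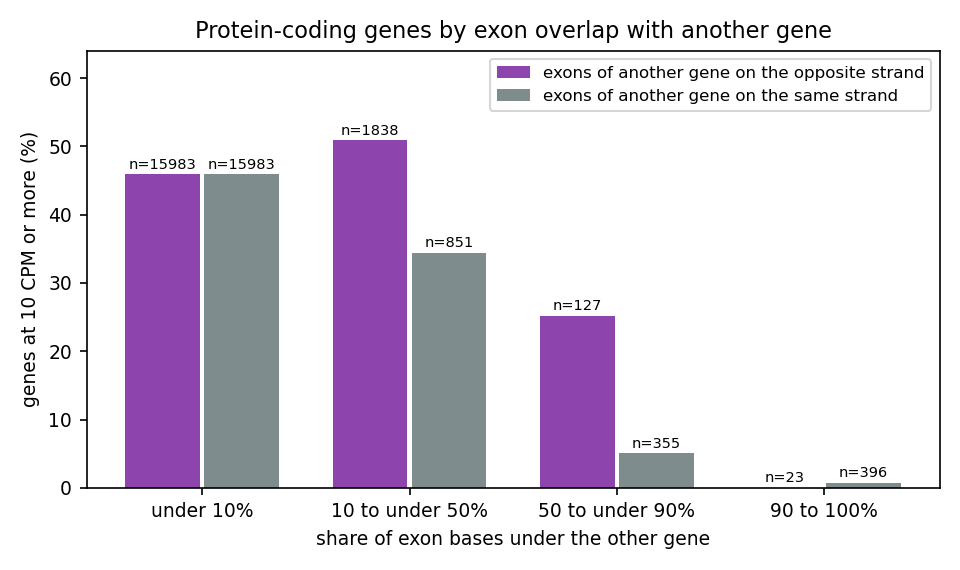
Share of protein-coding genes at 10 CPM or more (bars, percent) by how much of their exon sequence lies under exons of another gene, on the opposite strand in purple and on the same strand in grey, with the number of genes above each bar. For opposite-strand overlap the share is 45.9%, 50.9%, 25.2% and 0% from the lowest to the highest class, and for same-strand overlap it ends at 0.758%.

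Of RNAs that end without a poly(A) tail, 7 of 20 had no read in any library. These zeros do not measure the poly(A) selection alone. In GENCODE v29, same-strand exons of other genes cover 100% of the exon bases of RN7SK, RPPH1 and SCARNA2, all without a read. Their reads could have been set aside as ambiguous. Of the 7 RNAs tested, 0 were called by edgeR and 3 had an unadjusted p under 0.05. RN7SL1, the RNA of the signal recognition particle, was the most counted, with 1453 and 1550 reads with the mimic and 1399 and 66 in the control, so control library 2 stood far below the rest. It has near-identical copies, and same-strand exons cover 100% of its exon bases in GENCODE v29, so its count is uncertain. The histone message H1-4, with the smallest p, had 4 and 4 reads against 11 and 18. With edgeR, RN7SL1 was called higher with the mimic when mimic library 1, mimic library 2 or control library 1 was left out. It was also called with the replicate block, but not without control library 2. Where RN7SL1 was called, its log2 fold change ran from 0.90 to 4.43. Control library 2 was also the lowest of the 4 libraries for NEAT1, next to mimic library 2, and the higher control library for MALAT1. Whether carry-over of tail-less RNA bears on the levels of MALAT1 and NEAT1 was not tested.

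No snoRNA host among the described RNAs passed the test, and 2 of the 4 were below and 2 above a fitted change of 0. RefSeq places 11 snoRNA genes within GAS5, 9 within SNHG1 and 1 each within DANCR and EPB41L4A-AS1. Those with a row in the counts had 3 reads in all. GAS5 (ENSG00000234741, chromosome 1, 173863900 to 173868882, minus strand), a growth-arrest RNA that accumulates when translation is slowed, measured 68.9 and 66.4 CPM with the mimic and 69.1 and 69.5 CPM in the control. The groups lay next to each other without overlap, mimic library 1 just below control library 1. The fitted log2 change was -0.04 (-0.18 to 0.11, edgeR, Benjamini-Hochberg adjusted p = 0.931).

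SNHG1 (ENSG00000255717, chromosome 11, 62851988 to 62855914, minus strand), host of the snoRNAs SNORD22 and SNORD25 to SNORD31, had the largest difference of the 8. It stood at 40.6 and 41.7 CPM with the mimic and 45.1 and 46.6 CPM in the control, both control libraries above both mimic libraries. The log2 fold change of -0.15 (SE 0.08, interval -0.32 to 0.01) did not pass the test (edgeR, Benjamini-Hochberg adjusted p = 0.577). In GENCODE v29, 15.3% of its exon bases are shared with other genes on the same strand, whose reads cannot be assigned. SLC3A2, an amino acid transporter subunit whose gene begins 188 bases from the SNHG1 start, was at 0.02 (log2 fold change, -0.10 to 0.13).

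DANCR (ENSG00000226950, chromosome 4, 52712404 to 52720351, plus strand), host of SNORA26 and an RNA that holds back differentiation of progenitor cells, measured 69.4 and 67.0 CPM with the mimic and 65.3 and 63.7 CPM in the control. Both mimic libraries lay above both controls, with a log2 fold change of 0.08 (-0.06 to 0.22, edgeR, Benjamini-Hochberg adjusted p = 0.791). EPB41L4A-AS1 (ENSG00000224032, chromosome 5, 112160526 to 112164276, plus strand), host of SNORA13, measured 11.8 and 13.2 CPM with the mimic and 13.4 and 9.94 CPM in the control. Control library 1 was the highest and control library 2 the lowest, and the log2 fold change was 0.10 (-0.23 to 0.42, edgeR, Benjamini-Hochberg adjusted p = 0.911). Opposite-strand exons of other genes cover 49.6% of its exon bases, and EPB41L4A, whose gene lies across it, had 3 reads in all. They also cover 11.9% of DANCR, 7.98% of TUG1 and 1.16% of GAS5.

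The other snoRNA hosts, their binding proteins and the decay pathway gave no call by edgeR, DESeq2 or limma voom. DESeq2 and limma voom also called 0 genes of the NORAD, paraspeckle, speckle and tail-less RNA lists. DESeq2 gave an adjusted p to only 5210 genes, against 14464 with edgeR, and a list gene without one could not be called by it. Of 21 further non-coding hosts 19 were tested, 0 called by edgeR and 1 at an unadjusted p under 0.05, with 8 below and 11 above a log2 fold change of 0, with a median of 0.03. SNHG12, with the smallest p, stood at -0.28 (-0.54 to -0.02, edgeR, Benjamini-Hochberg adjusted p = 0.498), and the most abundant, SNHG14 (196 CPM), at 0.05. Core proteins and assembly factors of the snoRNA particles held 0 called of 17 and 2 at an unadjusted p under 0.05 (median 0.02), with the box C/D protein NOP56 at 0.01 and the assembly ATPase RUVBL1 at -0.22. Factors of nonsense-mediated decay held 0 called of 18 and 1 at an unadjusted p under 0.05 (median -0.01), with the kinase SMG1 at 0.00 and the exon junction protein MAGOH at 0.26 (0.05 to 0.48, edgeR, Benjamini-Hochberg adjusted p = 0.414).

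**Figure D4:**
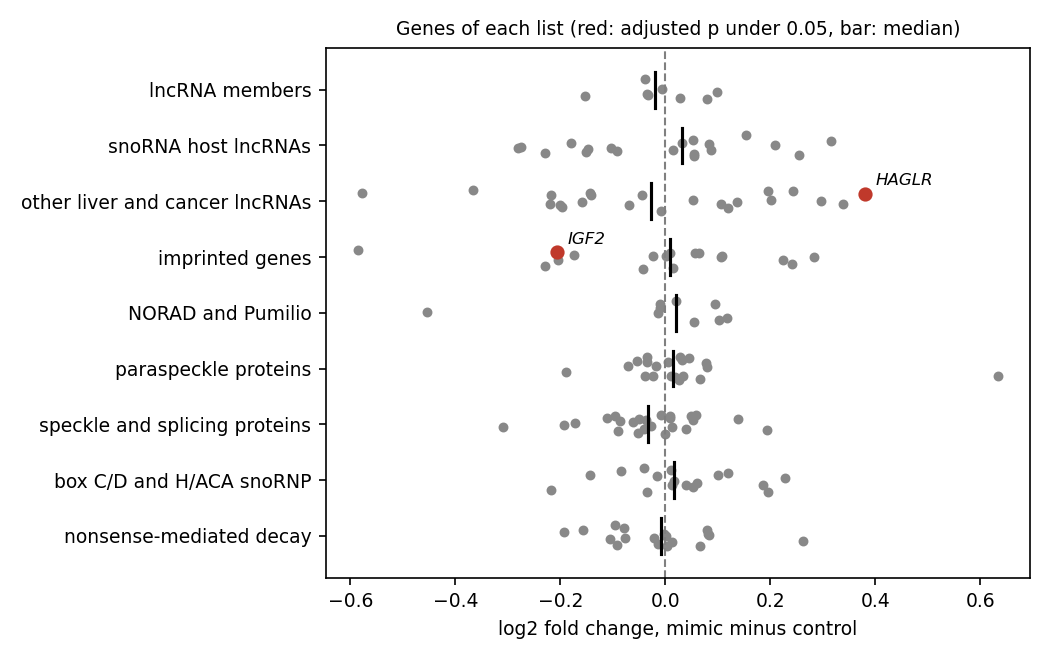
Log2 fold change, mimic minus control, of each tested gene of 9 lists, with 1 point per gene, a black bar at the list's median and genes past an adjusted p of 0.05 in red. The red points are HAGLR at 0.38 and IGF2 at -0.21, and all medians lie between -0.03 and 0.03.

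H19 had almost no counted reads, while its imprinted neighbour was abundant. H19 (ENSG00000130600, chromosome 11, 1995176 to 2001470, minus strand) had 2 and 8 reads with the mimic and 5 and 9 in the control, which is 0.131 to 0.559 CPM. The sum of 10 reads in the mimic has an exact 95% Poisson interval of 4.80 to 18.4, and that of 14 reads in the control one of 7.65 to 23.5. The intervals cover counting error only, and a difference between groups was not detectable at this depth. H19 did not pass the filter, and without a filter its log2 fold change was -0.53 with an SE of 0.75 (edgeR, Benjamini-Hochberg adjusted p = 0.806). RefSeq draws MRPL23, a mitochondrial ribosomal protein gene, across the whole of H19, and MRPL23 itself stood at 5.26 CPM. In GENCODE v29 exons of other genes cover 4.83% of the H19 exon bases on the opposite strand and 2.52% on the same strand. If exons of the annotation used for counting overlap H19, its reads could have been set aside as ambiguous, so the count gives no firm level of H19. How many were lost was not tested.

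IGF2, a fetal growth factor made by many hepatomas, lies 127642 bases from H19 and fell with the mimic. It measured 652 and 713 CPM with the mimic and 787 and 789 CPM in the control, from 1411 to 4995 reads of IGF2 for each read of H19 across the libraries. Both mimic libraries lay below both controls. The readthrough gene INS-IGF2 and the antisense IGF2-AS share its locus, so reads of IGF2 can be missing from its count. The fitted log2 change was -0.21 (SE 0.04, interval -0.30 to -0.11, edgeR, Benjamini-Hochberg adjusted p = 0.039). IGF2 was called in 11 of 13 other settings, with log2 fold changes from -0.27 to -0.20 in those 11. The call was lost without mimic library 1 (-0.15, adjusted p = 0.64) and with low counts left unfiltered (adjusted p = 0.754). Over the 13 settings its Benjamini-Hochberg adjusted p ran from 3.16e-06 to 0.754, with edgeR in 11 of them and DESeq2 or limma voom in the others. IGF2 was the 1 gene called of the 17 tested among the 21 nearest or overlapping protein-coding genes of the 10 RNAs. It was also the 1 called of 17 tested imprinted genes, so both counts rest on the same gene. Over all genes tested, 0.346% were called. Of the 17 neighbours tested, 2 (IGF2 and EPB41L1) had an unadjusted p under 0.05 by edgeR, beside 9.43% of all genes.

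HULC was also near the limit of detection, with 8 and 9 reads with the mimic and 4 and 8 in the control (0.238 to 0.523 CPM). The 17 mimic reads have an exact 95% Poisson interval of 9.90 to 27.2 and the 12 control reads one of 6.201 to 21.0, so no difference was detectable. The row carries the ID ENSG00000285219, which in GENCODE v29 is a locus of 858566 bases on chromosome 6 (8435568 to 9294133, plus strand) with 113 transcripts, and the 1588-base HULC gene of RefSeq (8652269 to 8653856) lies inside it. Some of these few reads can therefore come from other transcripts of the locus, and no level per length is given.

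Per length the order was NORAD, DANCR, GAS5, TUG1, SNHG1, NEAT1, EPB41L4A-AS1, MALAT1 and H19. DANCR reached 29.04 ± 1.06, GAS5 18.9 ± 0.381, SNHG1 11.6 ± 0.745, EPB41L4A-AS1 3.61 ± 0.482 and H19 0.122 ± 0.0631 CPM per kb (SD, n = 4 libraries each). No neighbours in this order overlapped in any library, the closest being TUG1, with a lowest value of 13.0, and SNHG1, with a highest value of 12.4 CPM per kb. The order was the same when CPM were divided by the longest annotated transcript in place of all exon bases, although DANCR then stood at 73.4 and GAS5 at 40.3 CPM per kb. The places of MALAT1, NEAT1, EPB41L4A-AS1 and H19 carry the limits given above.

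**Figure D5:**
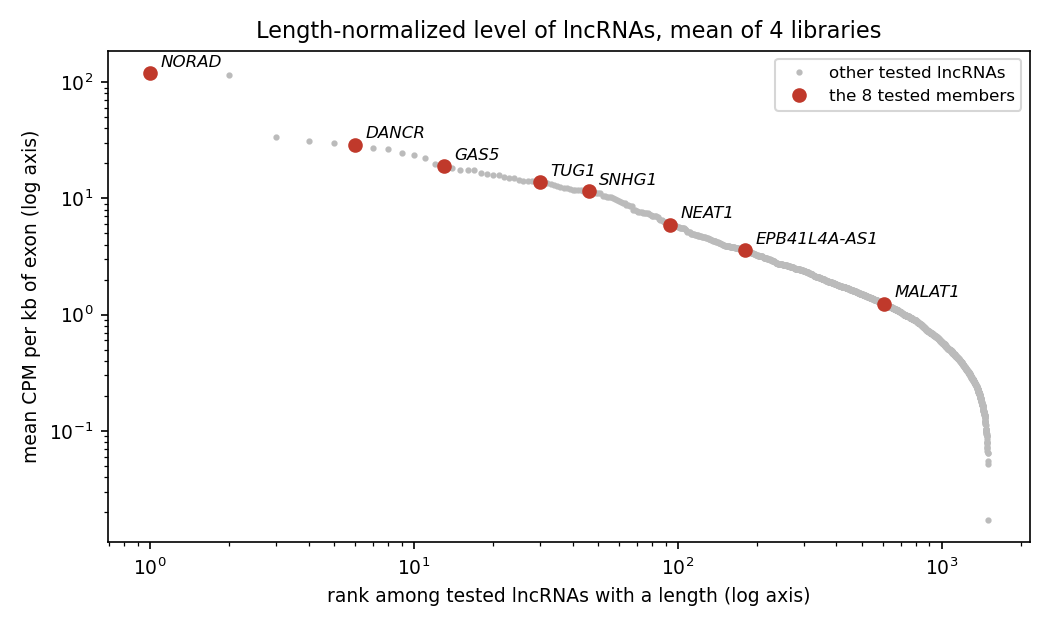
Mean CPM per kb of exon over 4 libraries against rank, both on log axes, for 1498 tested long non-coding RNAs, with the 8 tested described RNAs in red. NORAD is at rank 1, DANCR at 6, GAS5 at 13 and MALAT1 at 605.

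Across all 1508 long non-coding RNAs tested, 2 were called, HAGLR higher and ENSG00000260604 lower with the mimic. Over all genes, 50 of 14464 were called (0.346%). With only 2 calls, a difference from that share cannot be read as a trait of long non-coding RNAs. Most of them had low counts, EPB41L4A-AS1 at 12.1 CPM already ranking 113 of 1508, and the effect of this on the share was not tested. HAGLR, a transcript from the HOXD cluster and one of 41 further RNAs listed for their study in liver or cancer (22 tested, 1 called), rose from 84.1 and 73.0 CPM in the control to 112 and 93.1 CPM with the mimic. Opposite-strand exons cover 13.8% of its exon bases, so its count is uncertain if strand was not used. Every mimic library lay above every control library, with a log2 fold change of 0.38 (SE 0.08, interval 0.21 to 0.55, edgeR, Benjamini-Hochberg adjusted p = 0.0348). The call was lost without mimic library 1 (0.24, adjusted p = 0.478), without control library 2 (0.28, adjusted p = 0.0869) and with low counts left unfiltered (adjusted p = 0.754), all by edgeR, and held in 10 of 13 other settings, over which the adjusted p ran from 1.51e-07 to 0.754. ENSG00000260604, which has no symbol in the tables used, fell from 92.0 and 116 CPM in the control to 70.8 and 84.9 CPM with the mimic (log2 fold change -0.41, interval -0.59 to -0.23, edgeR, Benjamini-Hochberg adjusted p = 0.0381). Its call was lost with DESeq2 (adjusted p = 0.672), limma voom (adjusted p = 0.0589) and unfiltered low counts in edgeR (adjusted p = 0.754), and in edgeR without mimic library 1 (-0.29, adjusted p = 0.15) or control library 2 (-0.23, adjusted p = 0.345). It held in 8 of 13 settings, over which the adjusted p ran from 2.46e-11 to 0.754.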

How the data were processed

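The deposited table gave unnormalized read counts for each Ensembl gene ID in 4 poly(A)-selected libraries. Per the submitters' processing notes the authors used FastQC, Bowtie2, STAR and HTSeq with GRCh38.p14. The sources used here give no versions, annotation release or strand use. The 5 HTSeq summary entries, 23.1% to 24.1% of each library (6.29% to 6.36% ambiguous between genes), were left out. Symbols matched 62590 IDs. Lengths, overlaps and sequences came from GENCODE v29 (58219 IDs matched) and RefSeq. Low genes were removed by filterByExpr (count 10, total 15 at least) and the rest scaled with TMM and tested with edgeR 4.0.16 (glmQLFit with legacy = FALSE, glmQLFTest, R 4.3.3), with Benjamini-Hochberg adjustment over 14464 genes and a threshold of 0.05. The SE is the fold change over the root of F. The steps were tested on simulated data. DESeq2 1.42.0, limma voom 3.58.1, other scalings and filters, a block and each library left out were alternatives. Named genes were the 10 RNAs, each list's called genes or else its smallest p and highest level, and nearest protein-coding genes. Not all nearest genes are given. Members and lists were chosen with earlier results of these data known.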

Additional observations from a re-analysis of the deposited data

How the results depend on the processing

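No described RNA was called in any of the 13 alternatives, so their count stayed at 0. GAS5 and SNHG1 stayed below a log2 fold change of 0 and DANCR above it in all 13, SNHG1 between -0.18 and -0.13, whereas the fold changes of MALAT1 (-0.23 to 0.28), NEAT1 (-0.18 to 0.14), NORAD, TUG1 and EPB41L4A-AS1 crossed 0 in some. The median of the described RNAs was -0.04 with library totals (-0.0397), -0.032 with upper-quartile scaling, and between -0.033 and -0.0026 with 1 library left out. The count of all genes called, 50, became 30 with DESeq2, 0 with no filter on low counts and 306 with a replicate block on the column numbers, and lay between 20 and 424 with 1 library left out (20 when mimic library 1 was dropped, 120 for mimic library 2, 424 for control library 1 and 22 for control library 2). Whether same-numbered libraries were paired is not known, and the titles number the samples without repeats. Deviations of same-numbered libraries correlated at 0.0234 across genes. All tested genes weighed equally in that value, those with low counts included, so it cannot exclude a pairing. Of 143 counts of called genes in the lists under alternatives, 18 moved by more than 1.5 times, in the lists of other liver and cancer RNAs, imprinted genes, tail-less RNAs, hepatocyte markers and paraspeckle proteins. Beside genes whose calls are given with their values, GRB10 (-0.31), AFP (0.21) and TTR (0.31) were called by edgeR without control library 1, and AFP (0.13) and TTR (0.26) with the replicate block. Few counted reads limited H19 and HULC, with 24 and 29 reads in all, and widened the intervals of MALAT1 and EPB41L4A-AS1.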

Other observations

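Some long non-coding RNAs outside the 10 were as abundant as they were, named here after their values were seen. SNHG14, the long host transcript of the Prader-Willi region, stood at 196 CPM, and OIP5-AS1 at 132 CPM, LINC00261, an endoderm RNA beside FOXA2, at 130 CPM, and the imprinted antisense transcript KCNQ1OT1 at 130 CPM were close to NEAT1 in CPM. Per length, SNHG14 (4.51 CPM per kb) and KCNQ1OT1 (1.41) stood below NEAT1 (5.95), and OIP5-AS1 (10.4) and LINC00261 (23.4) above it. ENSG00000254054, which has no symbol in the tables used, stood at rank 2 per length with 115 CPM per kb, close to NORAD at 120. SNHG29 at 33.8, DSP-AS1 at 31.4 and PURPL, a p53-induced RNA, at 29.9 CPM per kb also stood above DANCR. OIP5-AS1 had a log2 fold change of 0.20 (0.08 to 0.32) without passing edgeR's test (adjusted p = 0.182, Benjamini-Hochberg). It was called by edgeR without control library 1 (0.23, adjusted p = 0.0361) and with the replicate block (0.20, adjusted p = 0.013). Same-strand exons of other genes cover 86.1% of the exon bases of LINC00261, so its count is uncertain under any strand setting. Opposite-strand exons cover 3.71% of OIP5-AS1 and 1.23% of KCNQ1OT1. Other RNAs studied in liver cancer were near absent. HOTAIR, HOTTIP and HEIH had 0 reads in all 4 libraries, MEG3 had 2 and LINC01018 had 1.

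Several imprinted genes other than H19 were highly expressed. PEG10, a retrotransposon-derived gene, stood at 2695 CPM, IGF2R, the receptor that clears IGF2, at 2170 CPM and the zinc finger gene PEG3 at 851 CPM, and none of these passed the test, with log2 fold changes of 0.01, 0.06 and 0.06. IGF2R was called by edgeR without control library 2 (0.19, adjusted p = 0.0064). CDKN1C, the maternally expressed growth inhibitor of the same chromosome region as H19, had 0 reads.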
